A study of Mus musculus with 12 samples.

Results

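The 9 genes described here encode proteins that bring fatty acids into cells or carry them inside: the membrane receptor Cd36, the fatty acid transport proteins Slc27a1, Slc27a2 and Slc27a4, the intracellular fatty acid binding proteins Fabp1, Fabp2, Fabp4 and Fabp5, and the lipoprotein receptor Vldlr. They were taken by symbol from a table of 55357 genes counted in mouse liver RNA, and each of the 9 passed the filter on low counts that left 17358 genes for testing. The 12 libraries came from male C57BL/6J mice sampled at 13 weeks of age. Hepatocyte-specific PPARα knockout mice (KO, PPARa fl/fl AlbuminCre Tg/+) gave 2 libraries on chow diet (KO chow) and 3 on CDAHFD, a choline-deficient, amino acid-defined diet rich in fat (KO CDAHFD). Their controls (WT, PPARa fl/fl AlbuminCre +/+) gave 4 libraries on chow diet (WT chow) and 3 on CDAHFD (WT CDAHFD). CDAHFD was fed for 6 weeks from 7 weeks of age. The floxed Ppara alleles are therefore shared by all groups, while the Albumin promoter limits Cre to hepatocytes, so that macrophages, endothelial and other liver cells of KO mice keep Ppara. The study's methods give 3 mice per group, which is not the number of libraries in WT chow and KO chow, and the labels' grouping was kept.

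Long-chain fatty acids reach the liver as free acids bound to albumin and inside lipoprotein particles. CD36 and the fatty acid transport proteins (FATPs, encoded by the Slc27 genes) favour their passage into the cell, FATPs also couple them to coenzyme A, and the fatty acid binding proteins (FABPs) carry them through the cytosol to membranes, organelles and the nucleus. FABP1 is the abundant FABP of hepatocytes, FABP2 that of enterocytes, FABP4 that of adipocytes and macrophages, and FABP5 that of skin and several immune cells. PPARα is a nuclear receptor that fatty acids activate and that binds DNA as a dimer with RXR, classically at direct repeats of a 6-base half-site spaced by a single base.

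Total counts ran from 29906785 to 43551003 per library. Levels are given as counts per 1000000 (CPM) over library sizes scaled by edgeR's TMM method, and a gene was called when its adjusted p in edgeR's quasi-likelihood test was under 0.05. The deleted gene did not overlap between genotypes on either diet: Ppara lay between 96.2 and 238 CPM in WT chow, between 59.5 and 75.5 CPM in WT CDAHFD, between 14.4 and 38.7 CPM in KO chow and between 20.7 and 51.9 CPM in KO CDAHFD. It was called lower in KO chow (log2 fold change -2.68 ± 0.50, adjusted p = 0.00111) and in WT CDAHFD (-1.29, adjusted p = 0.0163) than in WT chow, while between the CDAHFD groups the value was -0.94 (adjusted p = 0.547). Its counts cover the whole gene, and the cells without Cre contribute to them. Each library correlated better with a library of its own group than with one of another group. A score over 13 clock genes, which is high when Arntl, Clock, Npas2 and Cry1 are high against their counterparts in the cycle, was above 1 in WT chow 1 and 2 (1.34 and 1.14) and below -1 in WT chow 3 and 4 (-1.73 and -1.84). It was also of opposite sign in the 2 KO chow libraries (1.18 and -0.88), and KO CDAHFD 3 (-1.96) stood apart from KO CDAHFD 1 and 2 (0.49 and 0.47), whereas the WT CDAHFD libraries lay between 0.29 and 0.78. The labels give no time of sampling.

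Corrected for length, 2 of the 9 genes led in every group. In CPM per kilobase of exon, Fabp1 came first in WT chow with 6282 ± 687 (SD, n = 4) and Slc27a2 second with 451 ± 103. Fabp2 followed with 77.6 ± 9.36. The remaining genes stayed at or below 11.4 in WT chow, with Slc27a4 at 11.4 ± 0.93, Fabp5 at 9.66 ± 6.11, Cd36 at 6.58 ± 1.55, Fabp4 at 1.69 ± 0.44, Slc27a1 at 1.22 ± 0.23 and Vldlr at 0.21 ± 0.13. In this order Fabp5, with its wide spread, did not differ beyond the spread from Slc27a4 above it or Cd36 below it, and neither did Fabp4 from Slc27a1. In the CDAHFD groups Cd36 had rank 3, at 122 ± 21.2 CPM per kilobase (WT) and 92.7 ± 12.8 (KO). In KO chow it had rank 4, at 42.8 ± 11.98, behind Fabp2 at 118 ± 11.3. The annotated exons of Fabp4 and Fabp5 hold retained introns, and on the length of the principal transcript their WT chow levels were 8.46 and 34.9 CPM per kilobase, which puts Fabp4 above Cd36 at 6.95.

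**Figure D1:**
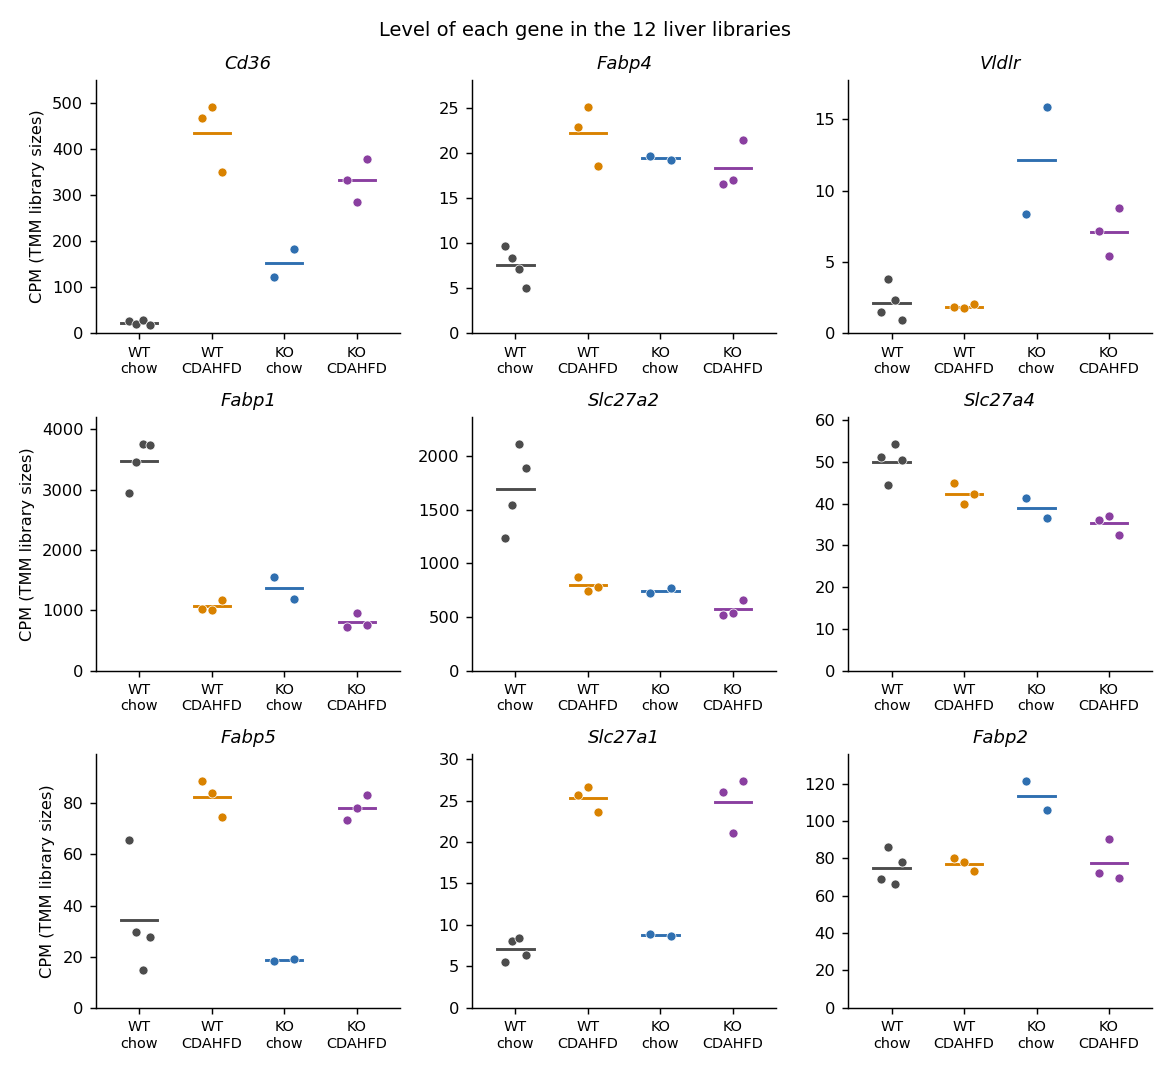
Level of each of the 9 genes in CPM (y axes start at 0, each with its own range) in the 12 libraries, by genotype and diet; points are libraries and bars are group means. Cd36 and Fabp4 were lowest in WT chow, Fabp1 and Slc27a2 were highest there, Vldlr was highest in the KO groups, and Fabp5 and Slc27a1 were highest in the CDAHFD groups.

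CD36 is a scavenger receptor and fatty acid translocase, expressed by macrophages, endothelial cells and adipocytes and at a low level by hepatocytes of lean animals. Cd36 (ENSMUSG00000002944, chromosome 5, 17781690 to 17888801, minus strand, GRCm38) measured 26.4, 20.7, 29.9 and 17.5 CPM in WT chow. It measured 468, 492 and 350 CPM in WT CDAHFD, 123 and 184 CPM in KO chow, and 333, 287 and 379 CPM in KO CDAHFD. All 8 libraries outside WT chow lay above the 4 WT chow libraries, and KO chow lay between WT chow and the CDAHFD groups without touching either. Relative to WT chow, Cd36 was 18.5-fold higher in WT CDAHFD (log2 fold change 4.21 ± 0.22 SE, adjusted p = 2.41e-08, edgeR), 6.50-fold higher in KO chow (2.7 ± 0.22, adjusted p = 1.61e-06) and 14.1-fold higher in KO CDAHFD (3.81 ± 0.21, adjusted p = 4.04e-08). Among KO mice the diet raised it 2.17-fold (1.11 ± 0.25, adjusted p = 0.0219), and KO chow was 2.84-fold below WT CDAHFD (adjusted p = 0.00458). The 2 CDAHFD groups overlapped (log2 difference KO minus WT -0.39 ± 0.21, adjusted p = 0.655).

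FATP2, the product of Slc27a2, is the FATP that hepatocytes express together with FATP5, and it also activates very long-chain fatty acids in peroxisomes. Slc27a2 (ENSMUSG00000027359, chromosome 2, 126552407 to 126588243, plus strand) measured 1232, 1547, 2111 and 1888 CPM in WT chow, 868, 738 and 783 CPM in WT CDAHFD, 725 and 768 CPM in KO chow, and 518, 539 and 657 CPM in KO CDAHFD. Every WT chow library was above the other 8, and every KO CDAHFD library was below the other 9. Against WT chow it was 2.13-fold lower in WT CDAHFD (log2 fold change -1.09 ± 0.17, adjusted p = 1.85e-04, edgeR), 2.27-fold lower in KO chow (-1.18 ± 0.20, adjusted p = 4.97e-04) and 2.97-fold lower in KO CDAHFD (-1.57 ± 0.17, adjusted p = 9.55e-06). KO chow and WT CDAHFD, each with a single change, overlapped (-0.09 ± 0.20, adjusted p = 0.818). The difference of KO CDAHFD from WT CDAHFD (-0.48 ± 0.18, adjusted p = 0.448) did not pass the test, although the libraries did not overlap. An antisense RNA gene, Gm26697, shares 11.2% of the exon bases of Slc27a2, and in libraries without strand their reads cannot be told apart there.

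Slc27a4 encodes FATP4, a broadly expressed FATP of the endoplasmic reticulum and the main one of the intestine. Its level changed least among the genes that were called: 44.5 to 54.3 CPM in WT chow, 39.8 to 44.8 CPM in WT CDAHFD, 41.4 and 36.5 CPM in KO chow, and 32.6 to 37.1 CPM in KO CDAHFD. WT chow overlapped with WT CDAHFD but not with the KO groups. Slc27a4 was 1.28-fold lower in KO chow than in WT chow (log2 fold change -0.36 ± 0.11, adjusted p = 0.0243, edgeR) and 1.42-fold lower in KO CDAHFD (-0.51 ± 0.10, adjusted p = 0.00101), while the value for WT CDAHFD was -0.24 ± 0.10 (adjusted p = 0.0586). These 3 directions held only with libraries scaled for composition. With library totals alone the log2 values became 0.04, 0.10 and 0.31, in a scaling that raised the median of all genes by 0.40, 0.57 and 0.51.

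Slc27a1 encodes FATP1, the FATP of muscle and fat, which is scarce in hepatocytes. It measured 5.51, 8.06, 8.40 and 6.42 CPM in WT chow and 8.92 and 8.68 CPM in KO chow, but 25.7, 26.6 and 23.6 CPM in WT CDAHFD and 26.0, 21.1 and 27.4 CPM in KO CDAHFD. The libraries thus fell by diet, with all 6 CDAHFD libraries at 21.1 CPM or more and all 6 chow libraries at 8.92 CPM or less. CDAHFD raised Slc27a1 3.55-fold in WT mice (log2 fold change 1.83 ± 0.15, adjusted p = 7.10e-07, edgeR) and 2.82-fold in KO mice (1.495 ± 0.18, adjusted p = 0.00108). The genotype values were 0.31 ± 0.17 on chow (adjusted p = 0.175) and -0.03 ± 0.15 on CDAHFD (adjusted p = 0.979). The difference of the diet effects, -0.33 ± 0.23, was not called (adjusted p = 0.336).

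FABP1, the liver FABP, binds 2 fatty acids at a time and is among the most abundant cytosolic proteins of hepatocytes. Fabp1 (ENSMUSG00000054422, chromosome 6, 71199827 to 71205023, plus strand) measured 2942, 3460, 3758 and 3737 CPM in WT chow. It measured 1018, 1001 and 1177 CPM in WT CDAHFD, 1548 and 1195 CPM in KO chow, and 727, 952 and 761 CPM in KO CDAHFD. The 4 groups did not overlap at any point, in the order WT chow, KO chow, WT CDAHFD, KO CDAHFD, although the last library of KO chow and the first of WT CDAHFD were close (1195 and 1177 CPM). Fabp1 was 2.53-fold lower in KO chow (log2 fold change -1.34 ± 0.17, adjusted p = 6.29e-05, edgeR), 3.26-fold lower in WT CDAHFD (-1.71 ± 0.15, adjusted p = 1.45e-06) and 4.27-fold lower in KO CDAHFD (-2.09 ± 0.15, adjusted p = 2.91e-07) than in WT chow. CDAHFD lowered it 1.69-fold in KO mice (-0.75 ± 0.17, adjusted p = 0.0234). The steps from KO chow to WT CDAHFD (adjusted p = 0.213) and from WT CDAHFD to KO CDAHFD (adjusted p = 0.483) did not pass the test.

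Cd36 showed the largest rise of the 9 genes against WT chow and Fabp1 the largest fall. Of the members with a RefSeq promoter window (250 bases before to 50 after the start, GRCm38.p6), they alone held a DR1. A DR1 is a direct repeat of the half-site AGGTCA with any 1 base between the copies, searched on either strand with up to 2 mismatches. A relation of these matches to the changes was not tested. Because of the matches, the bases before the start are printed here, 5′ to 3′ on the gene's strand, up to the first exon base in GENCODE M21. Capitals mark DR1 matches and exact copies of the half-site, which reads TGACCT on the other strand. The DR1 of Fabp1 begins with such a copy.
Cd36, chr5:17835897-17836146, minus strand: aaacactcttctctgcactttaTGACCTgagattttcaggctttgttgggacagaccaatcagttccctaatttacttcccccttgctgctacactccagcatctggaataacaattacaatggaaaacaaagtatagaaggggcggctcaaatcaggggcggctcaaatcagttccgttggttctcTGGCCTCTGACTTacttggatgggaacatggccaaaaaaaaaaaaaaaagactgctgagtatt
Fabp1, chr6:71199629-71199826, plus strand: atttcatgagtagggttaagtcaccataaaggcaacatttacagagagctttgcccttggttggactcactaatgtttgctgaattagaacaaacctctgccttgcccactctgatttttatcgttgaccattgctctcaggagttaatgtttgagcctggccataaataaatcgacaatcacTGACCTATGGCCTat

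The Fabp1 match, TGACCTATGGCCT, lay 67 to 55 bases before the start with 1 mismatch, and a further half-site began 9 bases before the start. The Cd36 match, TGGCCTCTGACTT, lay 63 to 51 bases before the start with 2 mismatches, and a half-site stood 228 bases before it. This Cd36 start lies inside the GENCODE gene, which has starts further upstream. Slc27a2 held a half-site 220 bases before its RefSeq start, which lies in the first exon of the GENCODE gene, and no half-site or DR1 was found in the windows of Fabp2, Slc27a1, Slc27a4 and Vldlr. Of 32817 promoter windows of the same length, 3.86% held such a DR1 and 16.3% a half-site. A match is a stretch of letters and was not tested for binding. Fabp4 and Fabp5 were not matched in the promoter table.

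FABP2 is the intestinal FABP, present in liver at a lower level than FABP1. Fabp2 (ENSMUSG00000023057, chromosome 3, 122895072 to 122899506, plus strand) measured 68.8, 86.1, 66.5 and 78.1 CPM in WT chow, 80.0, 77.9 and 73.5 CPM in WT CDAHFD and 72.1, 90.7 and 69.5 CPM in KO CDAHFD. Only the KO chow libraries stood apart, at 121 and 106 CPM, above the other 10. Fabp2 was 1.52-fold higher in KO chow than in WT chow (log2 fold change 0.60 ± 0.14, adjusted p = 0.00379, edgeR), 1.47-fold higher than in WT CDAHFD (adjusted p = 0.0412) and 1.47-fold above KO CDAHFD (adjusted p = 0.0426). Between WT CDAHFD and WT chow the value was 0.04 ± 0.12 (adjusted p = 0.794) and between KO CDAHFD and WT CDAHFD 0.01 ± 0.13 (adjusted p = 0.994). Of 8 enterocyte markers, Cdx2 and Sis had no count in any library, and Cdx1, Lct and Rbp2 averaged at most 0.05 CPM in each group. The other 3 markers, which liver makes too or expresses at a low level, were tested: against WT chow, Apoa4 and Vil1 were called higher in KO chow (4.34 and 1.82) and in WT CDAHFD (3.41 and 2.97), and Anpep in neither (-0.10 and 0.10). Apoa4 averaged most in KO chow, Vil1 and Anpep in KO CDAHFD.

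FABP4 is the FABP of adipocytes and activated macrophages. Fabp4 (ENSMUSG00000062515, chromosome 3, 10204088 to 10208576, minus strand) measured 9.71, 8.37, 7.14 and 5.09 CPM in WT chow. It measured 23.0, 25.2 and 18.6 CPM in WT CDAHFD, 19.7 and 19.3 CPM in KO chow, and 16.6, 17.0 and 21.5 CPM in KO CDAHFD. The lowest library outside WT chow was thus above the highest inside it, and the other 3 groups overlapped. Fabp4 was 2.93-fold higher in WT CDAHFD (log2 fold change 1.55 ± 0.19, adjusted p = 2.12e-05, edgeR), 2.56-fold higher in KO chow (1.36 ± 0.21, adjusted p = 2.32e-04) and 2.42-fold higher in KO CDAHFD (1.27 ± 0.19, adjusted p = 1.03e-04) than in WT chow. In KO mice the diet value was -0.08 ± 0.22 (adjusted p = 0.863). Of 6 adipocyte markers, Adipoq, Plin1, Lep, Retn and Cfd averaged at most 0.06 CPM in each group, and only Plin4, a droplet coat protein that other cells express too, was high enough to be tested: it was called higher in WT CDAHFD (2.81 ± 0.26, adjusted p = 1.80e-06) and KO CDAHFD (1.49 ± 0.25, adjusted p = 3.02e-04) than in WT chow, and its value in KO chow was -0.51 (adjusted p = 0.207).

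FABP5, the epidermal FABP, is made by keratinocytes, macrophages and endothelial cells. Fabp5 (ENSMUSG00000027533, chromosome 3, 10012548 to 10016607, plus strand) measured 65.6, 29.7, 14.7 and 27.8 CPM in WT chow and 18.4 and 19.1 CPM in KO chow. It measured 88.7, 84.2 and 74.6 CPM in WT CDAHFD and 73.5, 78.0 and 83.3 CPM in KO CDAHFD. The CDAHFD libraries all exceeded the chow libraries, and the 4 WT chow libraries spread over a coefficient of variation of 63.2%, against 2.55% in KO chow. CDAHFD raised Fabp5 2.40-fold in WT mice (log2 fold change 1.26 ± 0.34, adjusted p = 0.00748, edgeR) and 4.17-fold in KO mice (2.06 ± 0.44, adjusted p = 0.0191). The genotype value on chow was -0.88 ± 0.40 (adjusted p = 0.105). Without WT chow 3, the lowest library of the group, that value was -1.12 (adjusted p = 0.0142), and without WT chow 1, the highest, it was -0.35. With no filter on low counts the genotype value on chow was called (-0.84, adjusted p = 0.0223). In the 8 libraries with a positive clock score it was -1.37. There KO chow 1 alone stood against WT chow 1 and WT chow 2.

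VLDLR binds apolipoprotein E-rich particles and brings lipid into muscle, heart and fat, and it is scarce in healthy liver. Vldlr (ENSMUSG00000024924, chromosome 19, 27216484 to 27254231, plus strand) measured 1.51, 3.84, 2.37 and 0.92 CPM in WT chow, from 20 to 122 counts, and 1.86, 1.75 and 2.03 CPM in WT CDAHFD. It measured 8.38 and 15.9 CPM in KO chow and 7.18, 5.43 and 8.80 CPM in KO CDAHFD. All 5 KO libraries lay above all 7 WT libraries, on either diet. Vldlr was 5.51-fold higher in KO chow than in WT chow (log2 fold change 2.46 ± 0.40, adjusted p = 3.48e-04, edgeR) and 3.24-fold higher in KO CDAHFD than in WT chow (1.70 ± 0.37, adjusted p = 0.00183). Under CDAHFD the genotype value was 1.92 ± 0.40, a 3.79-fold difference with an adjusted p of 0.0736. The WT diet value was -0.22 ± 0.38 (adjusted p = 0.651), and the genotype effects on the 2 diets did not differ by test (interaction -0.54 ± 0.56, adjusted p = 0.549). In the 8 libraries with a positive clock score the genotype value on chow was 1.63, from KO chow 1 alone against WT chow 1 and WT chow 2.

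Loss of hepatocyte PPARα on chow diet, the comparison of KO chow with WT chow, raised Cd36, Vldlr, Fabp4 and Fabp2 and lowered Fabp1, Slc27a2 and Slc27a4. These 7 of 9 genes (4 higher, 3 lower) stand against 39.0% of all genes tested that were called in this comparison, 22.0% higher and 17.0% lower. The libraries of the 2 groups did not overlap for 8 of the 9 genes, all but Fabp5, where 50.2% of all genes tested did not overlap. The median log2 fold change of the 9 was 0.31, that of all genes 0.00. In edgeR, Slc27a4 was not called with the replicate number of the labels as a block (-0.36, adjusted p = 0.0687). With no filter on low counts it was not called either (-0.32, adjusted p = 0.137), and Fabp5 was called in its place (-0.84, adjusted p = 0.0223). The Slc27a4 value was -0.27 without KO chow 2 and -0.20 in the libraries with a positive clock score, both with KO chow 1 alone in its group. With library totals as the only scaling, 86.0% of all called genes were higher, against 56.4% with TMM, and the 7 members called were Slc27a1 (0.71, adjusted p = 0.0063) and the others without Slc27a4.

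In WT liver CDAHFD raised Cd36, Slc27a1, Fabp4 and Fabp5 and lowered Fabp1 and Slc27a2. The 6 genes called (4 higher, 2 lower) compare with 51.1% of all genes, 26.1% higher and 25.0% lower. The same 6 genes were those without overlap, as were 55.4% of all genes tested. The median of the 9 was 0.04 and that of all genes -0.05. With library totals alone, 88.6% of all called genes were higher, against 51.0% with TMM, and Fabp2 (0.60, adjusted p = 4.64e-04) and Slc27a4 (0.31, adjusted p = 0.0141) were called too. Slc27a4 was also called, as lower, without WT chow 2 (-0.27, adjusted p = 0.0323). This comparison and the one before it share the WT chow libraries, so their values stand side by side and are not independent: Cd36 4.21 with CDAHFD and 2.7 with KO, Fabp4 1.55 and 1.36, Fabp1 -1.71 and -1.34, Slc27a2 -1.09 and -1.18, Slc27a4 -0.24 and -0.36, against Slc27a1 1.83 and 0.31, Fabp5 1.26 and -0.88, Fabp2 0.04 and 0.60, and Vldlr -0.22 and 2.46.

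Under CDAHFD, Vldlr had the widest gap between genotypes of the 9 genes, 3.79-fold without overlap. In KO CDAHFD against WT CDAHFD, edgeR called 0 of the 9 genes, where 0.357% of all genes tested were called, 0.0864% higher and 0.271% lower. DESeq2 called 1, Vldlr (log2 fold change 1.93, adjusted p = 3.12e-04). At an unadjusted p under 0.05 there were 4 genes, where 8.77% of all genes were, Vldlr upward and Fabp1 (-0.39), Slc27a2 (-0.48) and Slc27a4 (-0.26) downward, and these were also the 4 genes without overlap, against 20.8% of all genes. With a clock score covariate edgeR called Slc27a2 (-0.62, adjusted p = 0.0346). Vldlr was called by edgeR too without WT chow 2 (1.94, adjusted p = 0.0295) or without WT chow 4 (1.94, adjusted p = 0.0354), and with no filter on low counts (1.93, adjusted p = 1.54e-04).

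In KO liver CDAHFD raised Fabp5, Slc27a1 and Cd36 and lowered Fabp1 and Fabp2. These 5 genes (3 higher, 2 lower) compare with 6.19% of all genes tested, 3.76% higher and 2.44% lower. The groups did not overlap for 6 genes, the 5 called and Slc27a2, against 39.1% of all genes. With library totals alone, 90.0% of all called genes were higher, against 60.7% with TMM. With 2 KO chow libraries the calls rest on few samples: only Slc27a1 was called whichever library was left out. Cd36 was not called without KO chow 1 (0.87, adjusted p = 0.202), KO CDAHFD 1 (1.11, 0.0569) or KO CDAHFD 3 (1.01, 0.0627). For the same 3 libraries left out in turn, Fabp1 had adjusted p of 0.209, 0.0886 and 0.0680. Fabp5 lost its call without either KO chow library (2.05, adjusted p = 0.139 without KO chow 1, and 2.08, 0.0923 without KO chow 2), and Fabp2 kept its own in 4 of 12 such fits.

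Set against each other, KO chow was above WT CDAHFD in Vldlr and Fabp2 and below it in Cd36, Fabp5 and Slc27a1. These 5 genes (2 higher, 3 lower) compare with 6.12% of all genes, 2.71% higher and 3.42% lower, and 6 genes, the 5 and Fabp1, did not overlap, against 48.6%. With library totals alone 19.1% of all called genes were higher, against 44.2% with TMM. Vldlr was 6.44-fold higher (log2 fold change 2.69 ± 0.43, adjusted p = 0.0036, edgeR), Fabp5 4.40-fold lower (-2.14 ± 0.44, adjusted p = 0.0154) and Slc27a1 2.87-fold lower (-1.52 ± 0.18, adjusted p = 7.63e-04). Cd36 was not called without KO chow 1 (-1.25, adjusted p = 0.0793), Fabp5 without WT CDAHFD 1 (-2.08, 0.0520), KO chow 1 (-2.12, 0.138) or KO chow 2 (-2.16, 0.0709), and Fabp2 in 6 of the 12 fits with a library left out. With both changes present, KO CDAHFD against WT chow, 8 genes were called, 5 higher (Cd36, Slc27a1, Vldlr, Fabp4, Fabp5) and 3 lower (Fabp1, Slc27a2, Slc27a4), against 52.4% of all genes, 26.9% higher and 25.4% lower. The same 8 did not overlap, against 51.5% of all genes. With library totals alone the median of all genes rose by 0.57 and 89.9% of called genes were higher, against 51.4% with TMM: Fabp2 was called higher (0.66, adjusted p = 2.31e-04), Slc27a4 was not called, and Cd36 stood at 4.43 (adjusted p = 2.82e-08) and Fabp1 at -1.48 (adjusted p = 8.03e-07). Fabp5 was not called in the libraries with a positive clock score (0.67, adjusted p = 0.087).

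**Figure D2:**
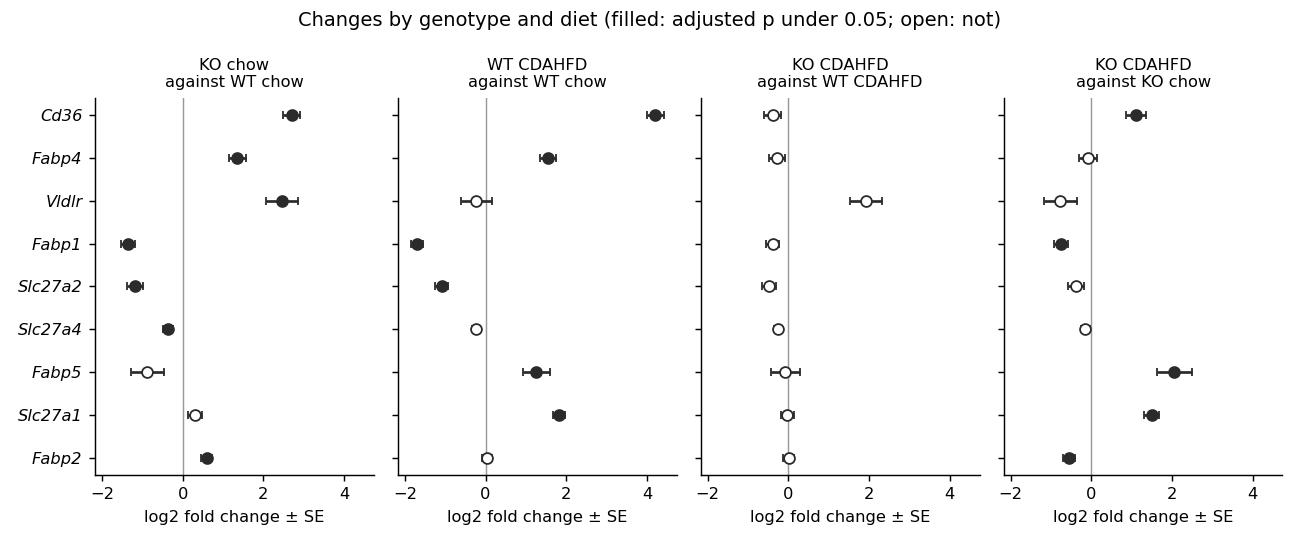
Log2 fold change (x axes, edgeR estimate ± SE) of the 9 genes in 4 comparisons; filled points had an adjusted p under 0.05. The values of Cd36 (2.7 and 4.21) and Fabp1 (-1.34 and -1.71) lie far from 0 in the 2 comparisons that share WT chow, Vldlr lies to the right for KO (2.46 on chow, 1.92 on CDAHFD) and Slc27a1 for CDAHFD (1.83 in WT, 1.495 in KO), and no point of KO CDAHFD against WT CDAHFD was filled.

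The diet effect differed between genotypes, by the interaction term, for 4 genes (1 higher, 3 lower), against 23.1% of all genes, 8.63% higher and 14.5% lower. For Cd36 the diet effect was 4.21 in WT and 1.11 in KO mice, a difference of -3.09 ± 0.31 on the log2 scale (adjusted p = 2.25e-05, edgeR). For Fabp4 it was 1.55 and -0.08 (difference -1.63 ± 0.29, adjusted p = 0.00129), and for Fabp1 -1.71 and -0.75 (0.95 ± 0.23, adjusted p = 0.00896). For Fabp2 it was 0.04 and -0.55 (-0.60 ± 0.19, adjusted p = 0.0383). The Fabp2 term was called in 5 of the 12 fits that leave out a library, and the Fabp1 term was not called without KO chow 2 (0.77, adjusted p = 0.0564). For Slc27a2 the difference was 0.70 ± 0.26 (adjusted p = 0.0724), called without WT chow 1 (0.83, adjusted p = 0.0118). With library totals alone 13.7% of all called terms were positive, against 37.3% with TMM.

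Ratios of counts within a library do not depend on scaling and show how the balance of the genes moved. Per 100 Slc27a2 counts there were 1.46 ± 0.50 Cd36 counts in WT chow (SD, n = 4), 55.1 ± 11.1 in WT CDAHFD (n = 3), 20.5 ± 4.94 in KO chow (n = 2) and 58.4 ± 5.56 in KO CDAHFD (n = 3). The highest WT chow library had 2.14 and the lowest other library 17.0. Per 100 Fabp1 counts, Fabp4 gave 0.22 ± 0.08, 2.12 ± 0.48, 1.44 ± 0.24 and 2.30 ± 0.52 in the same order of groups. WT chow was thus apart from the other groups in both ratios.

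For the genes that followed the diet the group means had the same order, and all chow libraries lay below all CDAHFD libraries. Fabp5 counts per 100 Fabp1 counts were 1.06 ± 0.81 in WT chow and 1.39 ± 0.29 in KO chow, whose libraries overlapped, and with CDAHFD they were 7.82 ± 1.29 (WT) and 9.75 ± 1.41 (KO). Slc27a1 counts per 100 Slc27a2 counts were 0.43 ± 0.08 (WT) and 1.18 ± 0.07 (KO) on chow, and 3.19 ± 0.36 (WT) and 4.37 ± 0.58 (KO) with CDAHFD, with no overlap between the groups. These ratios are descriptions, and no test was run on them.

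**Figure D3:**
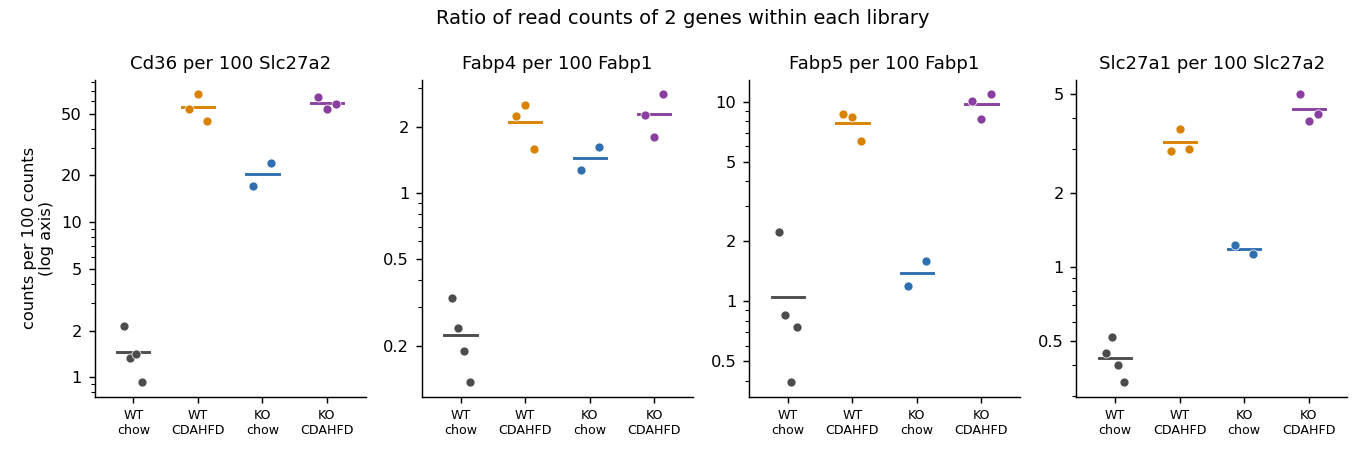
Counts of 1 gene per 100 counts of another in the same library (log y axes), by group; points are libraries and bars are means. Cd36 per 100 Slc27a2 averaged 1.46 in WT chow and 20.5 to 58.4 in the other groups, while Fabp5 per 100 Fabp1 averaged 1.06 and 1.39 in the chow groups and 7.82 and 9.75 with CDAHFD.

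Fabp1 kept the largest share of the 4 FABP members in every group, and Slc27a2 that of the 3 FATP members. Per exon length, Fabp1 made up 98.6% ± 0.27 of the 4 FABP genes in WT chow and 95.1% ± 0.44 in KO chow, and with CDAHFD 94.7% ± 0.70 (WT) and 93.2% ± 0.25 (KO). Fabp2 came next on this length, at 1.23% in WT chow and 3.95% to 5.09% in the other groups. On the length of the principal transcripts the Fabp1 share was 98.1% in WT chow and 89.0% to 93.9% in the other groups, and with CDAHFD Fabp5 did not differ beyond its spread from Fabp2 (3.98% ± 0.61 and 3.80% ± 0.42 in WT, 4.86% ± 0.66 and 4.86% ± 0.21 in KO). Slc27a2 made up 97.2% ± 0.61 of the 3 FATP genes in WT chow and 95.0% ± 0.56 in KO chow, and with CDAHFD 93.8% ± 0.28 (WT) and 92.5% ± 0.98 (KO). Over all 6 FATP genes the Slc27a2 share was 51.9% ± 3.08 in WT chow and 57.9% ± 0.28 in KO chow, and with CDAHFD 62.4% ± 2.27 (WT) and 52.8% ± 3.54 (KO), and nearly all of the balance was Slc27a5, at 46.5% ± 2.92 in WT chow and 33.3% to 42.5% in the other groups.

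Of the other 9 genes of the FATP and FABP families, 6 were tested. Against WT chow, KO chow had 1 of them higher and 1 lower, and WT CDAHFD had 3 higher and 1 lower. Of all genes tested, 22.0% were called higher and 17.0% lower in KO chow, and 26.1% and 25.0% in WT CDAHFD. The same shares stand beside the counts of the lists that follow. Slc27a5, the FATP that couples bile acids to coenzyme A in hepatocytes, averaged 972, 276, 324 and 297 CPM in WT chow, WT CDAHFD, KO chow and KO CDAHFD (log2 fold changes against WT chow -1.82 with CDAHFD, adjusted p = 2.23e-07, and -1.58 with KO, adjusted p = 4.67e-06, edgeR). Fabp7, the brain FABP, averaged 4.67, 26.5, 14.6 and 21.2 CPM in the same order (2.50, adjusted p = 9.24e-06, and 1.64, adjusted p = 8.89e-04). Slc27a6 (2.08, adjusted p = 0.00241) was called higher with CDAHFD at no more than 1.17 CPM in any group mean, and so was Fabp3 (adjusted p = 0.0025), with at most 2 counts in a WT chow library and 0.23 CPM in WT CDAHFD. Fabp9 and Pmp2 had 0 counts, which leaves room for at most 3 in each library, and Fabp6 had 1 count over the 12 libraries together.

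Among acyl-CoA synthetases, acyl-CoA carriers and Got2, a mitochondrial aminotransferase, 10 genes were tested. KO chow had 5 of them lower and 2 higher and WT CDAHFD 7 lower and 1 higher, with a median log2 fold change of -0.37 and -0.77, where all genes had 0.00 and -0.05, and the shares called lower and higher over all genes were 17.0% and 22.0% in KO chow and 25.0% and 26.1% in WT CDAHFD. Got2 was among the genes called lower in KO chow and in WT CDAHFD. Scaling by library totals alone raised the median of all genes by 0.40 and 0.51, which bears on this and the following lists. Acsl1, the main long-chain acyl-CoA synthetase of liver, averaged 1442, 476, 453 and 392 CPM in the same order. Acsl4, which prefers arachidonate, moved the other way (83.8, 118, 188 and 111 CPM; 1.16 with KO, adjusted p = 1.18e-04, and 0.49 with CDAHFD, adjusted p = 0.0137, edgeR).

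Among 15 genes of lipoprotein lipolysis and lipoprotein receptors, KO chow had 3 higher and 5 lower, and WT CDAHFD 2 higher and 7 lower, with medians of -0.43 and -0.62. Lpl, the lipase that frees fatty acids from circulating particles, averaged 24.5, 521, 248 and 462 CPM in WT chow, WT CDAHFD, KO chow and KO CDAHFD (4.41 with CDAHFD, adjusted p = 1.18e-07, and 3.34 with KO, adjusted p = 2.61e-06, edgeR). Lrp8, the receptor closest to VLDLR in structure, was called higher in both (adjusted p = 7.86e-07 and 2.23e-05), from at most 3 counts in a WT chow library to 1.66 and 0.94 CPM. Lipc, hepatic lipase, fell in both (-1.28 and -1.51). Of 5 caveolar genes, KO chow had 2 higher, and WT CDAHFD 2 higher and 1 lower, with Cavin1, a coat protein of caveolae, at 1.26 and 1.25.

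Of 16 genes known as PPARα targets, KO chow had 7 lower and 3 higher, WT CDAHFD 6 lower and 3 higher, and KO CDAHFD, set against WT CDAHFD, 4 lower and 0 higher, with medians of -0.43, -0.46 and -0.60. Between the CDAHFD groups, 0.271% of all genes tested were called lower and 0.0864% higher. Cpt2, the inner-membrane carnitine palmitoyltransferase, averaged 202, 121, 104 and 60.0 CPM in WT chow, WT CDAHFD, KO chow and KO CDAHFD, and was the gene of the list with the smallest adjusted p between the CDAHFD groups (-1.01, adjusted p = 8.69e-04, edgeR). Acot1, an acyl-CoA thioesterase, rose in KO chow (2.44, adjusted p = 2.32e-05, edgeR). Among 14 lipid-sensing receptors and their partners, KO chow had 1 higher and 4 lower, and WT CDAHFD 1 higher and 7 lower, with medians of -0.32 and -0.69. The higher gene was Pparg in both, the receptor of adipogenesis, at 5.22, 25.9, 22.1 and 25.9 CPM in the same order of groups (2.31, adjusted p = 7.23e-06, and 2.08, adjusted p = 5.89e-05).

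Markers of other cell types moved with the groups too. The summed level of 15 macrophage markers ran from 327 to 591 CPM in WT chow, 1786 to 2464 in WT CDAHFD, 1340 to 1347 in KO chow and 2093 to 2390 in KO CDAHFD, and no marker averaged 0 in a group. KO chow had 13 of the 15 called higher, and WT CDAHFD 11 higher and 1 lower, Timd4, a marker of resident Kupffer cells (-4.57). In bulk RNA, fewer cells of a type and less RNA per cell cannot be told apart, so whether Cd36, Fabp4 and Fabp5 rose in hepatocytes or in other cells cannot be read from these values. The Fabp5 values of KO chow, 18.4 and 19.1 CPM, lay within its wide WT chow range of 14.7 to 65.6 CPM, and the macrophage sum lay above its own. The part of the macrophages in the values of Cd36, Fabp4 and Fabp5 was not tested.

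The summed level of 9 hepatocyte markers was 94630 to 117100 CPM in WT chow, 51270 to 61810 in WT CDAHFD, 77010 to 90750 in KO chow and 50540 to 64820 in KO CDAHFD. KO chow had 6 of the 9 called lower and WT CDAHFD all 9, with median log2 fold changes of -0.67 and -0.98. Fabp1 fell by 1.34 and 1.71 and Slc27a2 by 1.18 and 1.09 in the same comparisons, and the part of the hepatocyte share in these falls was not tested.

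The summed level of 6 cholangiocyte markers was 46.4 to 79.5 CPM in WT chow and 166 to 289 in KO chow, and with CDAHFD 361 to 581 (WT) and 572 to 888 (KO), with 5 of 6 called higher in KO chow and 6 of 6 in WT CDAHFD. The gene Spp1 is in both this list and the macrophage list, so their sums and calls share it. The part of the cholangiocytes in the results was not tested. For 8 lymphocyte markers the sum ran from 6.19 to 11.2 CPM over all libraries. The summed level of 11 stellate cell and fibroblast markers was 369 to 485 CPM in WT chow and 1523 or more in every other library, and that of 11 endothelial markers was 352 to 531 CPM in WT chow, 266 to 364 in WT CDAHFD, 328 and 464 in KO chow and 263 to 478 in KO CDAHFD. Of 10 liver genes known to be higher in males, KO chow and WT CDAHFD each had 9 called lower than WT chow. Of 7 tested genes known to be higher in females, KO chow had 3 called higher, and WT CDAHFD 4 higher and 1 lower. Over all genes, 17.0% were called lower and 22.0% higher in KO chow, and 25.0% and 26.1% in WT CDAHFD. All mice were male, and the relation of these genes to the members was not tested. Muscle markers, 8 in number, summed to at most 0.46 CPM in a library, beside an Slc27a1 level of 5.51 CPM or more.

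**Figure D4:**
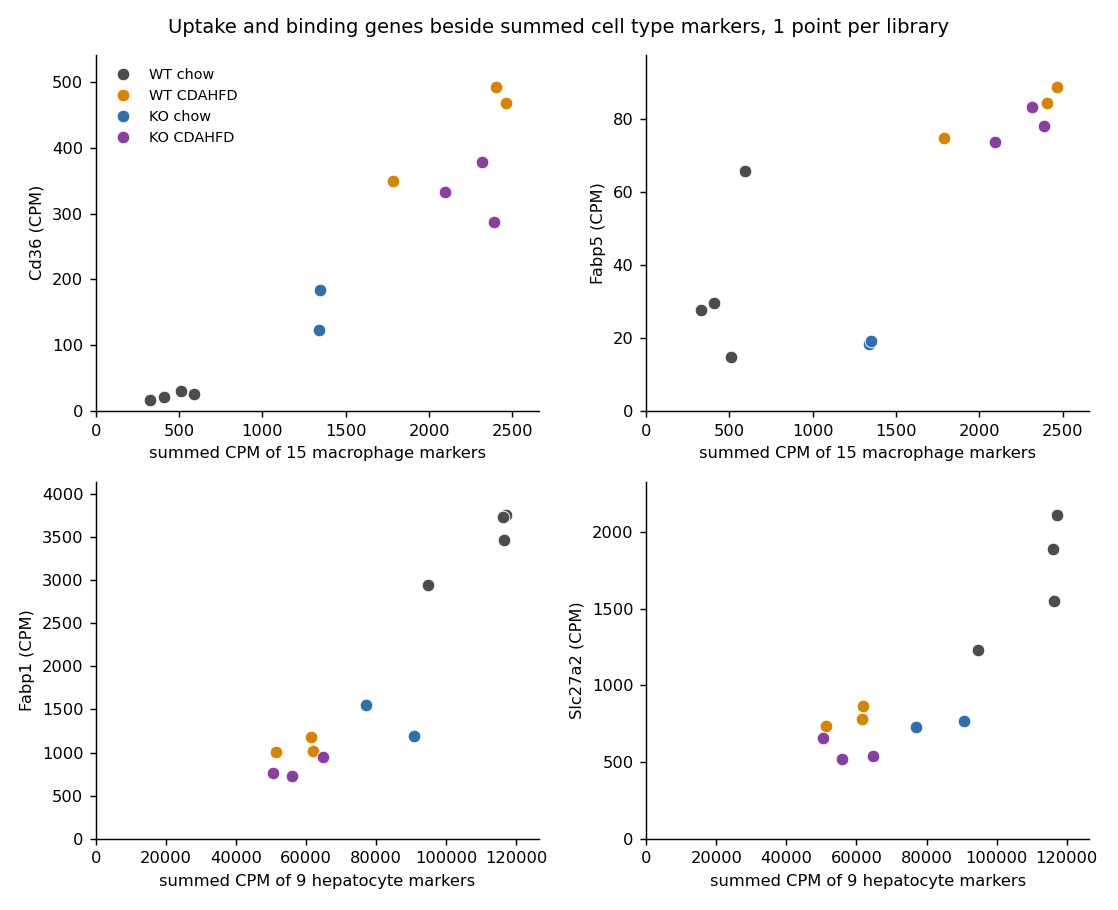
Level of a gene (y axis, CPM) against the summed CPM of cell type markers (x axis), 1 point per library, coloured by group. Cd36 and the macrophage sum were lowest in WT chow, intermediate in KO chow and highest in the CDAHFD groups. Fabp5 in KO chow (18.4 and 19.1 CPM) lay inside the WT chow range of 14.7 to 65.6 CPM, while the macrophage sum lay above its WT chow range. Fabp1, Slc27a2 and the hepatocyte sum were highest in WT chow. Slc27a2 overlapped between KO chow and WT CDAHFD, where the hepatocyte sums did not.

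The genes whose log2 CPM followed each member most closely were searched among 13364 genes over the 12 libraries, which share groups, so that these Pearson r values only describe likeness. Nearest to Cd36 were Syk, Cd84 and Slc6a8 (r = 0.997 for each), the first a kinase and the second a surface receptor of immune cells. Nearest to Fabp1 were Marc1, Acaa2 and Synj2bp (0.992, 0.990 and 0.988), and to Slc27a2 Abcd3, Acad11 and Chpt1 (0.992, 0.988 and 0.986). Acaa2 is the thiolase of mitochondrial β-oxidation, Abcd3 a peroxisomal transporter of fatty acids, and Acad11 an acyl-CoA dehydrogenase.

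Fabp4 lay nearest to Trim30a, BE692007 and Elovl7 (0.990, 0.989 and 0.985), and Fabp5 to Irf5, Kif9 and 9030619P08Rik (0.952, 0.946 and 0.938). Trim30a and Irf5 act in innate immune signalling, and Elovl7 elongates fatty acids. For Slc27a1 they were Mamdc2, Ptprs and Stac2 (0.990, 0.985 and 0.980), and for Slc27a4 Adtrp, Pgrmc2 and Gm2788 (0.955, 0.955 and 0.950). Fabp2 had Eif2d, Eif2s1 and Gm4204 (0.951, 0.939 and 0.932), the first 2 of which take part in translation initiation. Vldlr had Gm29856, Bace2 and Nt5e (0.933, 0.917 and 0.907), the lowest values of the 9.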

How the data were processed

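Values were read counts per Ensembl gene without normalization, as deposited by the authors, who aligned reads of poly-A selected, non-directional libraries to GRCm38 with STAR 2.7.3a after FastQC 0.11.5. The counting program and annotation release are not given in the sources used here. Symbols and exon lengths came from GENCODE M21, which held 94.08% of the identifiers. Each library was taken as 1 mouse, grouped by the labels; nothing in the labels says that replicates were raised apart, so p-values measure the spread between these samples.

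Analysis used R 4.3.3, edgeR 4.0.16, limma 3.58.1 and DESeq2 1.42.0, with Python 3.11.15. Genes passing filterByExpr (17358) were scaled with TMM and fitted by quasi-likelihood, with a mean per group and all 12 libraries in one model; p-values were adjusted by Benjamini-Hochberg over the genes tested. SE is the log2 fold change divided by the square root of F. Log2 CPM used a prior count of 2. Counts simulated with 200 changed genes served to check the code. The members and gene lists were chosen with earlier results of these data known. Genes named besides the 9 were those of each list with the smallest adjusted p, by a written rule, and the 3 most alike to each member with a mean of at least 1 CPM. Got2, Fabp6, Fabp9 and Pmp2 were named outside this rule. Markers named singly were chosen with values seen. Total counts per library had a median of 36989922, and limits from counts cover counting error only. Alternatives are given in the closing section.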

Additional observations from a re-analysis of the deposited data

Results flagged for a closer look

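A difference of the diet effect between KO and WT mice, by the interaction term, drew attention to 4 genes (edgeR's quasi-likelihood test, adjusted over all genes). The diet effect in KO minus that in WT mice, on the log2 scale, was -3.09 for Cd36, which rose with CDAHFD in both genotypes, and -1.63 for Fabp4, whose KO chow libraries were already at the level of the CDAHFD groups. It was 0.95 for Fabp1, which fell in both genotypes, and -0.60 for Fabp2, which was high only in KO chow. In each case the KO chow libraries differed from WT chow and the 2 CDAHFD groups lay closer to each other. By Dixon's Q, no WT chow library lay far enough from the others of its group to be set apart in any of the 9 genes. The other groups were too small for that test. It looks for a single distant library, so it cannot show a split like that of the clock scores between WT chow 1 and 2 and WT chow 3 and 4.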

How the results depend on the processing

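Of 1197 recomputed log2 values, 1113 kept their sign and their side of the threshold and 20 changed sign. Scaling by library totals alone changed the sign of the called values of Slc27a4 in KO chow (0.0431) and KO CDAHFD (0.1018) against WT chow, and of uncalled values: Slc27a4 0.3148 and Vldlr 0.328 in WT CDAHFD against WT chow, Slc27a1 0.02947 in KO CDAHFD against WT CDAHFD, Fabp4 0.1287 and Slc27a4 0.0587 in KO CDAHFD against KO chow, and Slc27a4 -0.2561 in the interaction. Uncalled values also changed sign with the clock score as a covariate (Fabp2 -0.00141 in WT CDAHFD against WT chow, Fabp5 0.138 in KO CDAHFD against WT CDAHFD). In the libraries with a positive clock score this held for Fabp2 (-0.006033 in WT CDAHFD against WT chow) and Slc27a4 (-0.006025 in the interaction). It held there for Vldlr too, at 0.1163 in the interaction in place of -0.54 ± 0.56. Leaving out 1 library gave Vldlr -0.4501 to 0.2328 in WT CDAHFD against WT chow, Fabp2 -0.1221 to 0.07832 and Slc27a1 -0.1033 to 0.07672 in KO CDAHFD against WT CDAHFD, and Fabp2 -0.07837 to 0.1576 in KO CDAHFD against WT chow. The cause was not tested.

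The number of the 9 genes called moved as follows. For KO CDAHFD against WT CDAHFD it was 1 in place of 0 with no filter, DESeq2, the replicate block or the clock covariate, and 0 to 1 with a library left out (1 without WT chow 2 or 4). Leaving out a library gave 1 to 5 calls for KO CDAHFD against KO chow (1 without KO chow 1, 2 without KO CDAHFD 1 or 3, 3 without KO chow 2) and 2 to 5 for KO chow against WT CDAHFD (2 without KO chow 1, 3 without WT CDAHFD 1 or KO chow 2). The interaction had 2 calls in the libraries with a positive clock score. With KO chow at 1 library, that library is assumed to vary like the other groups.

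With the replicate number of the labels as a block, the calls were 6 for KO chow and 6 for WT CDAHFD against WT chow, 3 for KO CDAHFD against KO chow, 4 for KO chow against WT CDAHFD, 8 for KO CDAHFD against WT chow and 3 for the interaction, and Fabp2 became -0.001688 in KO CDAHFD against WT CDAHFD. The numbers do not pair the samples: libraries of different groups with the same number correlated, in their deviations from the group means, between -0.2422 and 0.2662 over 15 pairs, and 4 of 12 libraries correlated best with their own number.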
